A study of Mus musculus with 6 samples.

Results

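The Bcl2 family genes described here are 10 regulators of mitochondrial cell death, taken as a named list, and the values come from every probe set that the platform annotation gave to 1 of them alone. Of the 10 genes, 9 had such a probe set, and together they held 31 of 45037 non-control probe sets. No probe set was named for Bax, so its signal is not analysed here. RNA of 6 mouse neural stem cell lines, 3 labelled FoxO-null and 3 labelled wild-type, was read on 6 Affymetrix arrays. These are dividing brain cells that can form neurons, astrocytes and oligodendrocytes, and FoxO proteins are transcription factors held out of the nucleus by insulin and growth factor signalling. The design text calls the lines independent. Which FoxO genes were deleted, how, in which cells or animals, and how the lines were cultured is not stated in the labels.

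Bcl2 family proteins set whether the outer mitochondrial membrane is opened to release cytochrome c, which activates caspases. Pro-survival members (Bcl2, Bcl2l1, Bcl2l2 and Mcl1) hold the effectors Bax and Bak1 in check, and BH3-only members (Bcl2l11, Bbc3, Pmaip1 and Bid) bind the pro-survival proteins or activate the effectors. Bcl2l11, which encodes Bim, and Bbc3, which encodes Puma, are textbook genes that FoxO factors can switch on, and Bbc3, Pmaip1 and Bax are textbook p53 targets. Setting FoxO-null beside wild-type lines therefore asks whether the transcript levels of these genes depend on FoxO in neural stem cells.

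FoxO factors bind the DNA letters GTAAACA, which were searched for on both strands of the promoter windows in RefSeq (GRCm38.p6). Each window ran from 250 bases before to 50 bases after a start site. The letters were found in 2 of the 14 windows of these genes (Bax included, with no window given for Pmaip1). These letters were in 3.65% of all 32851 mouse windows. The related letters ATAAACA were in 0 of the 14 windows and in 4.6% of all windows. The 2 windows belonged to Bcl2l11 and Bbc3, and their sequences are shown because these are the genes of the list best known as FoxO targets. A match of letters is a description and not a binding site. The 250 bases before the first Bcl2l11 start site, at chr2:128125788-128126037 on the plus strand of GRCm38.p6, and 30 bases around the Bbc3 motif, upstream of a start site but not next to it, at chr7:16310083-16310112 on the plus strand, read 5′ to 3′ with the motif in capitals (in Bbc3 it lies on the opposite strand and reads TGTTTAC here):
Bcl2l11: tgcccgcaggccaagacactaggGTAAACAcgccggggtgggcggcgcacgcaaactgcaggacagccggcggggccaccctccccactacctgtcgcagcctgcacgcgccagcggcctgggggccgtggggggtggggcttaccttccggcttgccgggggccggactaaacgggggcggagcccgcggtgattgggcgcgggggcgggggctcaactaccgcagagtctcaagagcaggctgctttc
Bbc3: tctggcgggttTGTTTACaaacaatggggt
The motif began 227 bases before the Bcl2l11 start site and 167 bases before the Bbc3 start site.

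None of the 31 Bcl2 family probe sets differed between the lines labelled FoxO-null and wild-type at a limma adjusted p under 0.05. The smallest adjusted p among them was 0.673. For 8 of the 9 genes, the 95% interval of the difference at the most intense probe set stayed within 2-fold in either direction, the exception being Pmaip1. The signal of the most intense probe set varied by a median of 1.42-fold over the 6 lines in these 9 genes. It varied by 1.64-fold over 12665 genes with signals above a filter on low values. The sets were not matched for signal, so this does not show that the family is steadier. The 9 probe sets lay at mean percentiles of 57.1 to 94.2, and the filter was at the 40th. Values are MAS5 signals, the summary of a probe set's brightness that the authors had scaled to a common level on each array. Differences are on the log2(signal + 5.94) scale as FoxO-null minus wild-type, which understates the change of weak probe sets, and come from 1 limma fit over all 45037 probe sets, with Benjamini-Hochberg adjustment. They are given ± standard error, and means are given ± SD over 3 lines per group.

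The rest of the array sets the scale for these values. Over all probe sets, 0.00222% passed the same adjusted threshold, which is 1 probe set, for the Notch effector gene Hes5. At an unadjusted limma p under 0.05 there was 1 Bcl2 family probe set of 31, against 7.24% of all probe sets. The 3 lines of one label lay wholly above the 3 of the other in 2 of the 31 probe sets, which is 6.45%, against 12.6% of all probe sets. The log2 difference was below 0 in 18 of the 31, against 46.5% of all probe sets, with a median of -0.075 against 0.028. Mcl1 held 6 of the 18 and Bid 3, and probe sets of 1 gene are not independent. At the most intense probe set, 6 of the 9 genes were below 0 and 3 above, against 53.7% above 0 over all genes. With 3 lines a group, permuting the lines exactly cannot give 1 probe set a two-sided p below 0.1.

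The FoxO signals went against the labels, so the groups are called by their labels throughout. Of 9 probe sets for Foxo1, Foxo3 and Foxo4, 8 had a positive log2 difference, and in 5 all 3 lines labelled FoxO-null lay above all 3 labelled wild-type. The smallest of their limma adjusted p-values was 0.0882. At the most intense probe set, Foxo1 read 77.9, 77.8 and 100.3 in FoxO-null lines and 20.3, 20.4 and 31.7 in wild-type lines. Foxo4 read 177.9, 57.2 and 189.9 in FoxO-null lines and 5.56, 4.14 and 17.1 in wild-type lines. Those 3 wild-type values were under the background level defined below. The Foxo3 groups overlapped (0.66 ± 0.25 on the log2 scale), and the other Foxo4 probe set gave -0.31 ± 0.41. The labels do not place the deleted parts, and probe sets outside them would not check the deletion. Why signals were higher under the FoxO-null label was not tested. The highest of 27 Bacillus subtilis control probe sets, used as each array's background level, read between 19.2 and 27.6 on FoxO-null arrays and between 14.4 and 19.1 on wild-type arrays. All 8 neural stem and progenitor markers, among them Nes and Sox2, were above it on all 6 arrays. Of the 8, 6 differences were positive and 2 negative, and 3 reached an unadjusted limma p under 0.05. These were Hes5 (1.41 ± 0.15, limma adjusted p 0.0272), Msi1 (0.51 ± 0.18) and Nes (-0.36 ± 0.16). Hes5 and Msi1 had FoxO-null lines wholly above wild-type lines. Of 6 neuron markers, 2 differences were positive and 4 negative, and 0 had an unadjusted limma p under 0.05. Tubb3 (-0.64 ± 0.30) and Syt1 (-0.43 ± 0.29) had FoxO-null lines wholly under wild-type lines. The summed signals of 6 microglia markers were 93.9 to 136 in FoxO-null lines against 85.8 to 116 in wild-type lines. Those of 5 fibroblast markers were 88.4 to 133 in FoxO-null lines against 76.2 to 156 in wild-type lines. The microglia genes Aif1, Ptprc and Itgam were at or under background on all 6 arrays. Csf1r was above background on all 6 arrays, at 47.5 to 73.4. Tmem119 was above it on 2 FoxO-null arrays and 1 wild-type array, and Cx3cr1 on 1 FoxO-null array. The fibroblast gene Col1a2 was also above background on all 6 arrays, at 23.3 to 81.6. The signals of 5 oligodendrocyte markers summed to 7547 to 8031 in FoxO-null lines against 4179 to 5392 in wild-type lines, mostly from Mbp and Cnp. Of these 5 genes 0 passed the limma adjusted threshold (3 at an unadjusted p under 0.05), 3 had FoxO-null lines wholly above wild-type lines, and Mog was at or under background on all 6 arrays. The signals of 6 astrocyte markers summed to 7460 to 8315 in FoxO-null lines against 5578 to 6687 in wild-type lines, mostly from Slc1a3 and Aldh1l1. Of these 6 genes 0 passed the limma adjusted threshold (3 at an unadjusted p under 0.05), and 3 had FoxO-null lines wholly above wild-type lines. Over all genes the groups did not overlap in 14.4%, in either direction. For the 18S rRNA 5′ control the signals were 23.5 to 28.5 in FoxO-null lines, against 38.7 and 38.9 in wild-type 2 and 3 and 211 in wild-type 1, which stood apart, and without wild-type 1 the count of Bcl2 family probe sets past the threshold was also 0. The part of these differences in the values below was not tested, and in bulk samples fewer cells of a type and less RNA per cell cannot be told apart.

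**Figure D1:**
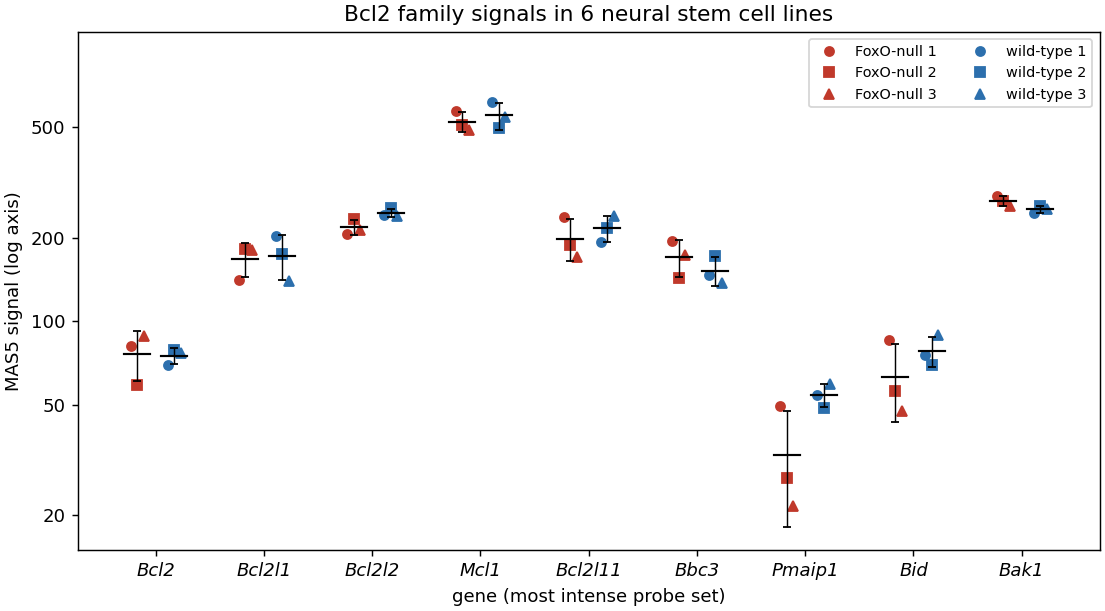
MAS5 signal (log axis) of the most intense probe set of each of the 9 measured Bcl2 family genes in 3 lines labelled FoxO-null (red) and 3 labelled wild-type (blue), with bars for mean and SD. The groups overlap in 8 of the 9 genes, and Pmaip1 is spread most widely, with FoxO-null 2 and 3 under all other lines.

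No difference was detected in the pro-survival genes. Mcl1, a short-lived guardian that neural progenitors need to survive, was the most intense member, with its leading probe set at a percentile of 94.2 among all probe sets on average. That probe set read 573, 510.4 and 487 in FoxO-null lines 1 to 3 and 618, 496 and 543 in wild-type lines 1 to 3. FoxO-null 3 was lowest and wild-type 1 highest, and the groups overlapped. The log2 difference was -0.075 ± 0.12, with a 95% interval of -0.34 to 0.19 (limma adjusted p 0.936). At this probe set the interval of the fold ran from 0.79 to 1.14.

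Mcl1 had 6 probe sets, all above background on all 6 arrays, and all 6 log2 differences were below 0, from -0.36 to -0.064. These probe sets read the same transcript, so they are not 6 independent observations. FoxO-null 3 was the lowest line in 4 of the 6, and wild-type 1 was the highest in 3. The largest difference was in 1456381_x_at, which read 232, 251 and 151 in FoxO-null lines and 307, 272 and 226 in wild-type lines (-0.36 ± 0.19, limma adjusted p 0.744). Next came 1448503_at, with 387, 448 and 291 in FoxO-null lines and 516, 433 and 425 in wild-type lines (-0.30 ± 0.16, limma adjusted p 0.74). The groups overlapped in both. Probe sets whose names end in _x_at hold probes that can also match other transcripts.

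Bcl2, the founding pro-survival gene, read 81.7, 59.1 and 88.6 in FoxO-null lines and 69.4, 78.7 and 76.8 in wild-type lines at its most intense probe set. FoxO-null lines held both the lowest and the highest value. Groups differed by 0.0095 ± 0.22 on the log2 scale, with an interval of -0.46 to 0.48 (limma adjusted p 0.997). The second probe set, 1457687_at, gave 0.02 ± 0.22, and the third, 1422938_at, gave -0.31 ± 0.30. The other 2 of its 5 probe sets lay at or under background on all 6 arrays.

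Bcl2l1, which encodes Bcl-xL, the survival factor of young neurons, read 141, 182 and 181 in FoxO-null lines and 202, 175 and 139 in wild-type lines. FoxO-null 1 and wild-type 3 were the 2 lowest, so a low value occurred under each label. The log2 difference was -0.027 ± 0.17, with an interval of -0.40 to 0.35 (limma adjusted p 0.989). Its probe sets 1420887_a_at and 1426191_a_at, of the kind that matches several transcripts of a gene, gave 0.036 ± 0.22 and 0.071 ± 0.28, and in both FoxO-null 1 was lowest and FoxO-null 3 highest. The last of its 4 probe sets was above background on wild-type 3 alone.

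Bcl2l2, which encodes Bcl-w, a pro-survival protein of the adult nervous system, was the member whose groups did not overlap at the most intense probe set. It read 207, 233 and 213 in FoxO-null lines and 242, 256 and 240.0 in wild-type lines, so all FoxO-null values lay under all wild-type values by a narrow gap. On the log2 scale the difference was -0.17 ± 0.12, with an interval of -0.44 to 0.099 (limma adjusted p 0.822). A second probe set, 1430453_a_at, had non-overlapping groups in the opposite order, with 15.6, 11.9 and 44.3 in FoxO-null lines and 10.7, 4.0 and 4.92 in wild-type lines. Of these 6 values only that of FoxO-null 3 was above its array's background. Its log2 difference of 1.14 ± 0.51 had an unadjusted limma p of 0.0429 and an adjusted p of 0.673, and with 5 of the 6 values not above background no fold is given. The remaining 2 of the 4 probe sets gave 0.042 ± 0.47 and 0.13 ± 0.42 at signals near background, so the probe sets of Bcl2l2 did not give 1 direction.

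**Figure D2:**
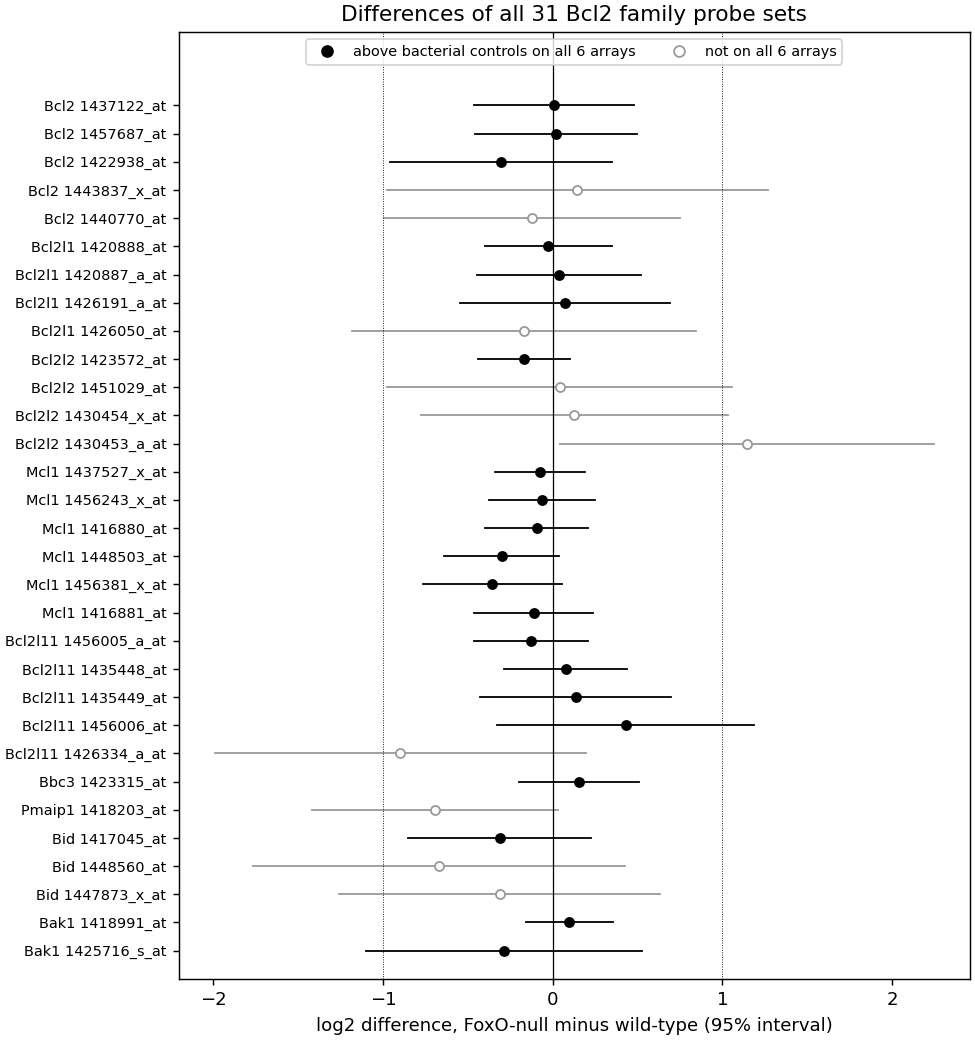
Log2 difference (FoxO-null minus wild-type) of each of the 31 probe sets with its 95% interval, filled where the signal was above the bacterial controls on all 6 arrays (21 probe sets) and open otherwise. Dotted lines mark 2-fold, and only the interval of Bcl2l2 1430453_a_at leaves out 0, before any adjustment.

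No BH3-only gene passed the threshold between the labels, and Pmaip1 and Bid were the most variable members at the most intense probe set. There the highest line was 2.74-fold over the lowest for Pmaip1 and 1.87-fold for Bid. It was 1.40-fold for Bcl2l11, 1.42-fold for Bbc3 and 1.24-fold to 1.5-fold for the pro-survival genes. Pmaip1 and Bid also had the lowest mean percentiles of the 9 genes, at 57.1 and 67.6, so this ranking is not matched for signal. Bcl2l11, the Bim gene, read 237, 188 and 170.4 in FoxO-null lines and 193, 216 and 239 in wild-type lines at its most intense probe set. FoxO-null 1 and wild-type 3 were nearly equal at the top, and FoxO-null 3 was lowest. The log2 difference was -0.13 ± 0.15, with an interval of -0.46 to 0.21 (limma adjusted p 0.908), a fold of 0.725 to 1.16. No difference of Bim transcript was thus detected, and at this probe set the interval leaves out a fall to below 0.725 of the wild-type level and a rise above 1.16-fold. Leaving out FoxO-null 1 gave a log2 difference of -0.26, leaving out FoxO-null 3 gave -0.027, and leaving out wild-type 1 or 3 gave -0.20 or -0.053.

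The 5 Bcl2l11 probe sets differed in sign, with 3 above 0 and 2 below. Probe set 1435448_at read 132, 126 and 105 in FoxO-null lines and 109, 123 and 109 in wild-type lines (log2 difference 0.076 ± 0.17). Probe set 1435449_at read 103, 74.9 and 70.4 in FoxO-null lines and 75.0, 103 and 51.9 in wild-type lines (0.13 ± 0.26). The groups overlapped in both. FoxO-null 1 was the highest line in 3 of the 4 Bcl2l11 probe sets above background on all arrays. The weakest of these, 1456006_at, read 47.8, 47.3 and 35.8 in FoxO-null lines and 27.8, 21.4 and 47.0 in wild-type lines, where wild-type 3 stood with the FoxO-null lines (0.43 ± 0.35, limma adjusted p 0.848). The probe set with the largest difference, 1426334_a_at, read 24.9, 14.9 and 3.99 in FoxO-null lines and 19.7, 39.9 and 29.1 in wild-type lines, with FoxO-null 2 and 3 under background (-0.90 ± 0.50, limma adjusted p 0.763). The genes whose levels over the 6 lines lay closest to those of the most intense Bcl2l11 probe set, among 12664 others, were Fbxo30, Sertad3 and Lin37. Their root mean square differences were 0.046, 0.047 and 0.050 on the log2 scale after centring, against 0.17 for Bcl2l11 around its own mean. These genes were picked as the closest of 12664 over only 6 lines, so their closeness follows from that choice and carries no test.

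Bbc3, the Puma gene, read 195, 143 and 173 in FoxO-null lines and 147, 172 and 137 in wild-type lines at its 1 probe set. FoxO-null 1 was highest and wild-type 3 lowest, with FoxO-null 2 among the wild-type values. FoxO-null minus wild-type came to 0.15 ± 0.16 on the log2 scale, with an interval of -0.20 to 0.51 (limma adjusted p 0.893), a fold of 0.872 to 1.42. Leaving out FoxO-null 1 or 2 gave 0.056 or 0.27 on the log2 scale, and leaving out wild-type 2 or 3 gave 0.24 or 0.086.

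Pmaip1, which encodes Noxa, a BH3-only protein that binds Mcl1, showed the widest spread of the members at the most intense probe set. Its 1 probe set read 49.5, 27.2 and 21.6 in FoxO-null lines and 54.2, 48.8 and 59.3 in wild-type lines. FoxO-null 2 and 3 were under every other line and at or under their arrays' background levels, while FoxO-null 1 lay within the wild-type range. The means were 32.8 ± 14.8 in FoxO-null lines and 54.1 ± 5.27 in wild-type lines, and the log2 difference was -0.69 ± 0.33 with an interval of -1.42 to 0.029 (limma unadjusted p 0.0583, adjusted p 0.707). Its log2 difference ranged from -0.99 without FoxO-null 1 to -0.48 without FoxO-null 3, and the limma adjusted p was 0.756 or higher in each of the 6 fits that left out 1 line.

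Bid, which caspase-8 cleaves to pass a death receptor signal to mitochondria, read 85.5, 56.1 and 47.6 in FoxO-null lines and 75.2, 69.8 and 88.9 in wild-type lines at its most intense probe set. FoxO-null 2 and 3 were again the lowest lines and FoxO-null 1 the second highest. Its log2 difference was -0.31 ± 0.25, with an interval of -0.85 to 0.23 (limma adjusted p 0.84), or -0.54 without FoxO-null 1 and -0.15 without FoxO-null 3. Of its other 2 probe sets, 1448560_at was above background on wild-type 1 alone and 1447873_x_at on no array.

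In Pmaip1, Bid and Bcl2l11, FoxO-null 1 was the highest and FoxO-null 3 the lowest of the FoxO-null lines, and wild-type 3 was the highest of all 6 lines. Relative to its mean over the 6 lines, Pmaip1 stood at 0.24, -0.51 and -0.77 on the log2 scale in FoxO-null 1 to 3, Bid at 0.29, -0.27 and -0.49, and Bcl2l11 at 0.20, -0.12 and -0.26. In Bbc3, where the order differed, FoxO-null 1 to 3 stood at 0.27, -0.15 and 0.11. As a class the 4 BH3-only genes averaged 0.25, -0.26 and -0.35 in FoxO-null 1 to 3 and 0.064, 0.10 and 0.20 in wild-type 1 to 3. The 4 pro-survival genes averaged between -0.068 and 0.018 in FoxO-null lines and between -0.041 and 0.10 in wild-type lines. These averages describe the lines and carry no test, and Pmaip1 and Bid, with the widest deviations, had the weakest signals of the 9 genes.

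**Figure D3:**
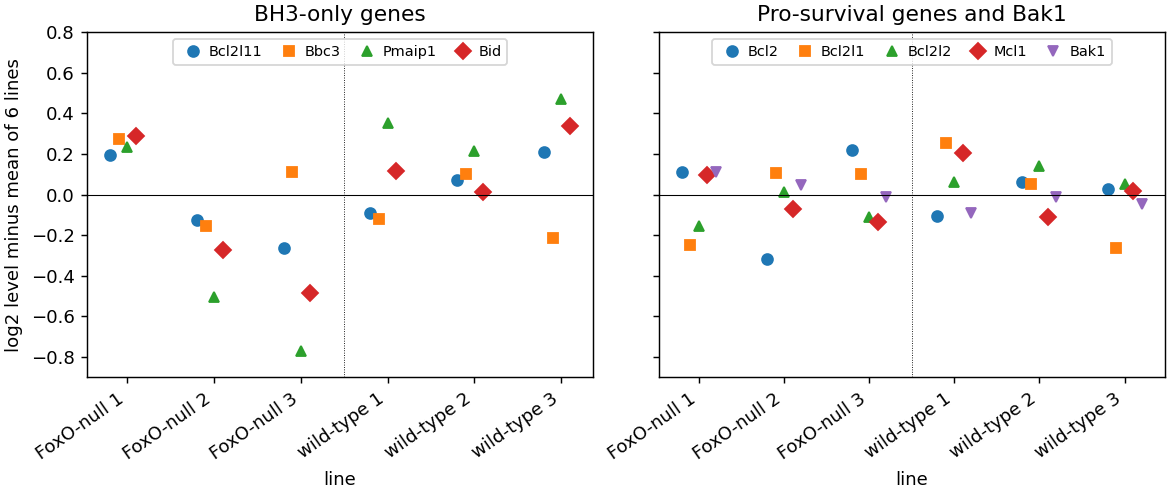
Log2 level of the most intense probe set minus its mean over the 6 lines, for the 4 BH3-only genes (left) and the 4 pro-survival genes with Bak1 (right), FoxO-null lines left of the dotted line and wild-type lines right of it. Pmaip1 reaches from -0.77 to 0.47, while Bak1 stays between -0.090 and 0.11.

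Bak1, the effector that forms pores in the outer mitochondrial membrane beside Bax, had the steadiest signal of the members at the most intense probe set. Its most intense probe set read 284, 271 and 260.0 in FoxO-null lines and 246, 260.2 and 254 in wild-type lines, so the highest was 1.15-fold over the lowest. FoxO-null 3 and wild-type 2 met within 1 signal unit, and the other FoxO-null lines lay above all wild-type lines. A log2 difference of 0.098 ± 0.12 resulted, with an interval of -0.16 to 0.36 (limma adjusted p 0.907), a fold of 0.895 to 1.28. The other probe set, 1425716_s_at, read 49.1, 59.9 and 55.0 in FoxO-null lines and 35.4, 139 and 61.1 in wild-type lines (-0.29 ± 0.37). There wild-type 2 was far above the rest, and the highest line was 3.92-fold over the lowest. A name ending in _s_at marks probes shared by several transcripts.

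No difference passed the threshold in the genes around the family either. Other lists, 5 in all, of Bcl2-related genes, caspases and their inhibitors, mitochondrial partners, death receptor genes and regulators of Mcl1 and Bim held 72 genes, of which 60 had a probe set. Each gene was read at its most intense probe set, and 0 of the 60 passed the limma adjusted threshold, against 0.0055% of all 18193 genes. An unadjusted limma p under 0.05 was reached by 7, with 5 positive and 2 negative differences, which is 11.7% against 8.73% of all genes. The smallest adjusted p was 0.485, and the median log2 difference was 0.019 against 0.026 for all genes.

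Of 13 measured Bcl2-related genes, 9 had positive and 4 negative differences. Bok, an effector-like relative of Bax and Bak1, had the smallest p, with 112, 142 and 179 in FoxO-null lines and 209, 202 and 218 in wild-type lines (-0.55 ± 0.17, limma adjusted p 0.492). All 3 FoxO-null values lay under all wild-type values. Bnip3, a mitophagy gene that low oxygen induces, read 2059, 2260.3 and 1892 in FoxO-null lines and 1123, 2000.2 and 1611 in wild-type lines (0.43 ± 0.18, limma adjusted p 0.65), with wild-type 2 inside the FoxO-null range. Bnip2 read 313, 329 and 316 in FoxO-null lines and 419, 385 and 358 in wild-type lines, without overlap (-0.27 ± 0.12, limma adjusted p 0.655).

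Among 16 genes of the apoptosome, caspases and their inhibitors, 8 differences were positive and 8 negative. Birc3, an inhibitor of apoptosis gene of NF-kB signalling, read 34.3, 15.6 and 32.5 in FoxO-null lines and 4.61, 3.85 and 15.3 in wild-type lines (1.31 ± 0.49, limma adjusted p 0.593). FoxO-null 2 and all 3 wild-type lines were under background, so no fold is given. Apaf1, the scaffold of the apoptosome, read 105, 89.3 and 104 in FoxO-null lines and 138, 135 and 111 in wild-type lines (-0.34 ± 0.17, limma adjusted p 0.731). Casp2, an initiator caspase gene, read 265, 262 and 253 in FoxO-null lines and 289, 305 and 309.9 in wild-type lines (-0.21 ± 0.12, limma adjusted p 0.761). In both the groups did not overlap, and FoxO-null lines were the lower.

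Of 11 mitochondrial partners, 5 differences were positive and 6 negative, and 0 had an unadjusted limma p under 0.05. The voltage-dependent anion channel gene Vdac3 came nearest, with means of 1184 ± 159.6 in FoxO-null lines and 1429 ± 117 in wild-type lines (-0.28 ± 0.13), followed by the cyclophilin D gene Ppif (-0.26 ± 0.15) and Mtch2, which encodes the mitochondrial receptor of Bid (-0.14 ± 0.11). Of 10 death receptor genes, 5 were positive and 5 negative. Tnfrsf21, which encodes death receptor 6, read 1011, 1006 and 840.2 in FoxO-null lines and 694, 727 and 772 in wild-type lines, without overlap (0.37 ± 0.12, limma adjusted p 0.486). The adaptor gene Traf2 (0.40 ± 0.20) and the tumour necrosis factor receptor gene Tnfrsf1a (-0.19 ± 0.13) had overlapping groups.

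Of 10 regulators of Mcl1 and Bim protein, 5 were positive and 5 negative. Btrc, a subunit of a ubiquitin ligase, read 225, 211 and 277 in FoxO-null lines and 177, 175 and 152 in wild-type lines (0.48 ± 0.15, limma adjusted p 0.485). Dynll2, a dynein light chain gene, read 739.8, 649 and 581 in FoxO-null lines and 481, 553 and 510.1 in wild-type lines (0.34 ± 0.12, limma adjusted p 0.56). Mapk8, which encodes the kinase JNK1, read 175, 176 and 124 in FoxO-null lines and 197, 204 and 187 in wild-type lines (-0.31 ± 0.16, limma adjusted p 0.74). The groups did not overlap in these 3 genes, with FoxO-null lines above in Btrc and Dynll2 and below in Mapk8.

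The 7 apoptosis genes listed as switched on by FoxO, among them Bcl2l11, Bbc3 and Bnip3, had 6 positive differences and 1 negative, against 53.7% positive over all genes, and 0 of the 7 passed the limma adjusted threshold. At an unadjusted limma p under 0.05 there was 1 of 7, Bnip3, against 8.73% of all genes. Their median log2 difference was 0.43, or 0.29 without the Fas ligand gene Fasl, which was at or under background on all 6 arrays, against 0.026 for all genes. The negative one was Bcl2l11. The death ligand gene Tnfsf10, which encodes TRAIL, read 26.1, 32.0 and 33.9 in FoxO-null lines and 29.4, 13.6 and 16.5 in wild-type lines (0.55 ± 0.40, limma adjusted p 0.826). Its values in wild-type 2 and 3 were under background. Bcl6, a transcriptional repressor, read 72.4, 54.8 and 64.1 in FoxO-null lines and 52.3, 32.3 and 52.8 in wild-type lines, without overlap (0.45 ± 0.27, limma adjusted p 0.781).

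**Figure D4:**
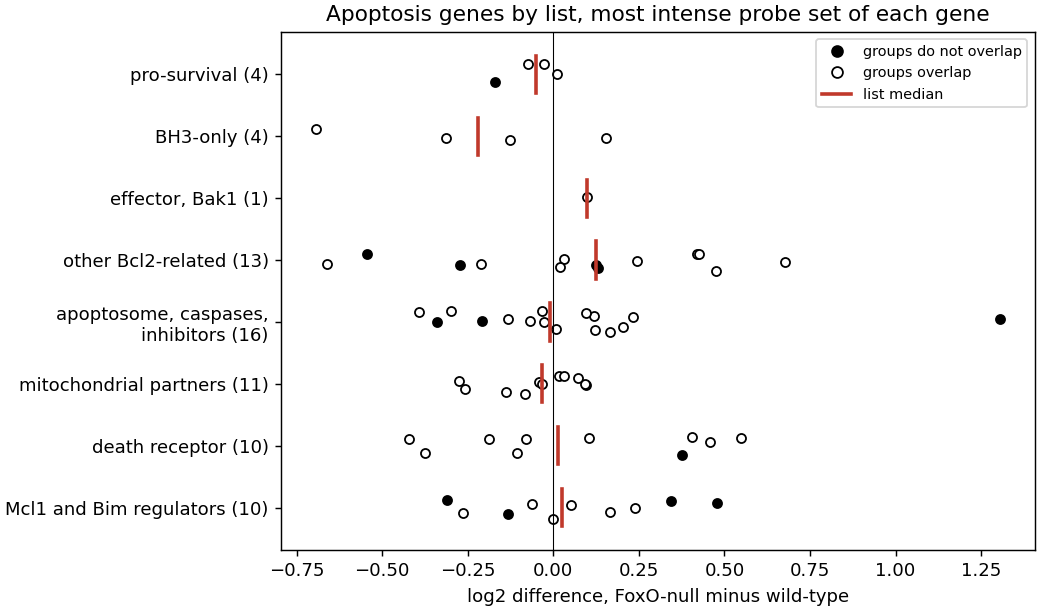
Log2 difference (FoxO-null minus wild-type) of the most intense probe set of each gene, by list, with the number of measured genes in brackets, the list median in red and filled points where the groups did not overlap. The medians of these 8 lists lie between -0.22 for the BH3-only genes and 0.13 for other Bcl2-related genes.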

How the data were processed

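The deposited values are linear intensity signals in 6 columns. The authors used MAS5 (version not given in the sources used here), per the submitters' processing notes. Biotinylated cRNA came from total RNA of each line, per the labels' protocols. The authors' scaling was kept, and 0 value columns were left out. An offset of 5.94, the 20th percentile over all values, was added before taking log2. All 45037 non-control probe sets entered 1 two-sided fit with lmFit and eBayes (intensity trend, no covariate) of limma 3.58.1 in R 4.3.3. The procedure was tested on simulated data, with changes set in probe sets above the filter. Over 10 simulations, 39.6% of 2-fold and 83.1% of 4-fold changes passed the adjusted threshold, and 4.44% of calls were false. Many 2-fold changes would thus be missed at this threshold. Python 3.11.15 with pandas 2.3.3, numpy 2.4.6 and matplotlib 3.10.9 made summaries and plots. The number of arrays limits the precision, and p-values treat the lines as independent, as the design text calls them.

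The members and lists were chosen with earlier results of these data known. Named genes were the members, the FoxO genes, up to 3 genes of smallest p from each list, and the 3 genes nearest to Bcl2l11. Hes5, Msi1, Tubb3, Syt1, Csf1r, Tmem119, Cx3cr1 and Col1a2, and genes of the FoxO-regulated list beyond 3, were named after their values were seen. The alternatives changed the offset, the filter, the scaling, the trend, the unit tested and the arrays. Gene symbols of all 31 probe sets matched the RefSeq gene table by gene number.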

Additional observations from a re-analysis of the deposited data

How the results depend on the processing

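By limma, 0 member probe sets passed in each of the 14 alternatives (0 to 3 at an unadjusted p under 0.05), nor did any of the other apoptosis genes, and the smallest adjusted p of a member was 0.476, with 1 test per gene (Pmaip1, 9 member genes tested of 12665). The count over all probe sets, 1 as reported, was 0 with median centring, without the intensity trend, with an offset of 16 and with the replicate number as a block, 5 with 1 test per gene, and 0 to 1 when 1 line was left out. The replicate block changed no call of a member. Deviations of same-numbered lines from their group means correlated at 0.014, 0.064 and 0.10 for numbers 1, 2 and 3 (across probe sets above the filter). For FoxO-null 1 and 3 the same-numbered line correlated best, while FoxO-null 2 correlated better with wild-type 1 (0.088). Lines of unlike number correlated at -0.14 to 0.088. These weak values do not settle whether the numbers pair the lines, and the main fit took no pairing. The count of 2 member probe sets without overlap was 1 with the filter at the 40th percentile (a signal of 16.2), 1 with median centring, 1 with 1 test per gene, 3 with quantile normalization, and 4 to 7 when 1 line was left out, where groups are smaller. Of 126 values for the most intense probe sets, 7 changed sign and 119 did not. Those of Bcl2 were -0.059 with median centring and -0.099 to 0.17 over the fits that left out 1 line, those of Bcl2l1 -0.17 to 0.093 and those of Mcl1 -0.15 to 0.0088. The cause was not tested. The median over member probe sets was -0.15 to -0.053 when 1 line was left out. Of the 31 probe sets, 6 lay under the filter and 10 were not above background on all arrays, where MAS5 signals give only rough values.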
